A study of Tupaia belangeri with 15 samples.

Results

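RLBP1, RDH5, RDH8, RDH10, RDH11, RDH12, RPE65, LRAT, RBP3 and ABCA4 are genes of the visual cycle and of retinoid handling, and their levels were followed across the cell classes and ages of the tree shrew (TS, Tupaia belangeri) retina. The 10 genes were taken by name from the 83605 features in the matrices, and 9 of them were found. No feature carries the name RDH5, so this gene was not analysed here. RPE65 also has 1 numbered copy, RPE65li1, which is given beside it. Single nuclei had been sequenced from 15 retinas, 5 each of animals labelled Infancy, Mature and Senile, on the 10x Genomics platform, and the labels name no treatment and no genetic change in any group. Each library is 1 retina of a different animal. The senile animals had been bought from another institute than the infant and mature ones, so that age and source cannot be told apart.

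Light turns the chromophore 11-cis-retinal of the photoreceptor opsins into all-trans-retinal, and the visual cycle is the set of reactions that restores the 11-cis form. In the retinal pigment epithelium (RPE), LRAT makes retinyl esters and RPE65 turns them into 11-cis-retinol, which RDH5 oxidises. In photoreceptors, ABCA4 moves retinal across the outer segment disc membrane and RDH8 and RDH12 reduce it to retinol, while RBP3 carries retinoids through the space between the cells. Müller glia hold RLBP1, a binding protein of 11-cis retinoids, and are described as the site of a second route that serves cones. The TS is a diurnal mammal whose retina is rich in cones.

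The libraries held 13429873 to 58734300 UMIs (unique molecular identifiers, each standing for 1 captured RNA molecule) in 120437 barcodes. Any 2 libraries shared between 4 and 30 barcodes. Nuclei were assigned to 11 classes from marker genes that hold no gene of the set, which gave 15174 cones, 7286 Müller glia and 932 rods among 38601 assigned nuclei. Levels are given as CPM, the counts of a gene per 1000000 UMIs summed over a class in 1 retina, where that class had 10 nuclei or more, so n is the number of retinas. This limit left 15 retinas for cones and Müller glia and 14 for rods, with no rods in Senile 1. Levels were compared between classes within a gene and not between genes. The files list several common retinal genes at 0 in every library, among them the rod gene CNGA1 and the cone genes CNGA3 and CNGB3, so a low value may reflect the annotation and does not show that a gene is silent. Fewer copies in each nucleus and fewer nuclei with the gene cannot be told apart in a summed level. Shares of nuclei are therefore given as well for RLBP1, RDH12, ABCA4 and RPE65.

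**Figure D1:**
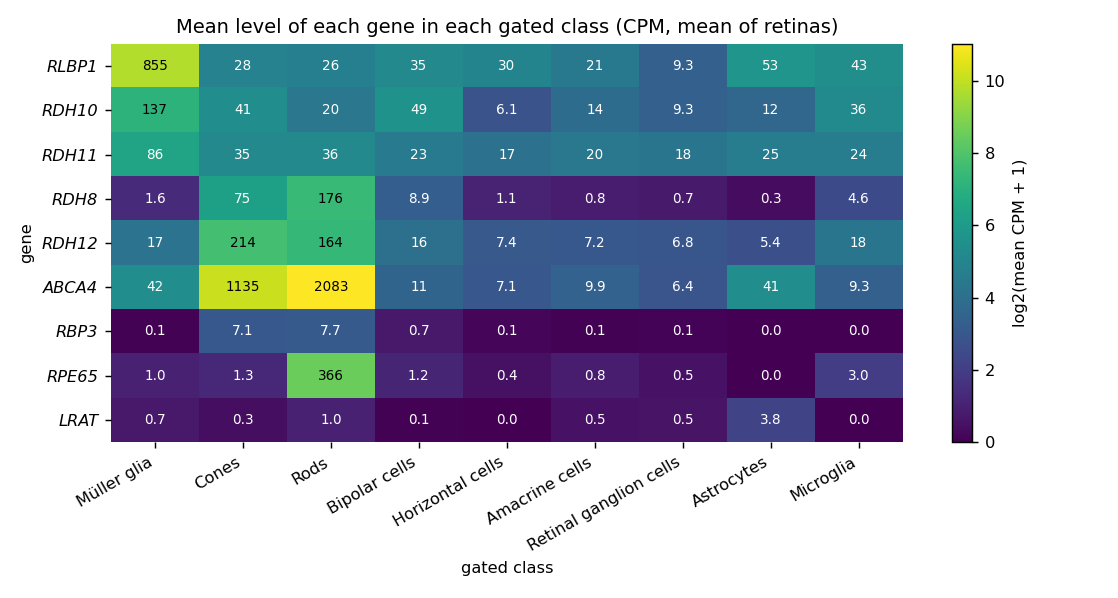
Mean CPM of the 9 genes (rows) in 9 gated classes (columns), averaged over the retinas where the class had 10 nuclei or more, with the value printed in each cell and the colour on a log2(CPM + 1) scale. Read along a row, RLBP1 is highest in Müller glia at 855 CPM, ABCA4 in rods at 2083 CPM and RPE65 in rods at 366 CPM, and LRAT stays under 4 CPM in all 9 classes.

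In Müller glia, RLBP1, RDH10 and RDH11 were higher than in cones, and RDH8, RDH12 and ABCA4 were lower. These 6 genes were the ones of the set with enough UMIs to be tested in Müller glia against cones, and all 6 passed an adjusted p of 0.05 in edgeR's quasi-likelihood test with Benjamini-Hochberg adjustment, 3 in each direction. Of all 12714 features tested 77.2% passed as well, so the number of calls says little about the set, and the sizes and the order of the classes carry the description. The median log2 fold change was -1.27 over these 6 genes and -0.01 over all features. RPE65, LRAT and RBP3 were too low in this pair of classes to enter the fit.

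RLBP1 encodes the cellular retinaldehyde-binding protein. In Müller glia its level ran from 613 to 1171 CPM over the 15 retinas, with a median of 829 CPM. In cones it ran from 13.7 to 53.8 CPM with a median of 24.7 CPM, and in rods from 0 to 52.2 CPM with a median of 26.4 CPM. The Müller range lay wholly above both photoreceptor ranges, and the difference was 4.98 ± 0.17 (log2 fold change ± SE, adjusted p = 4.40e-17, edgeR) against cones and 5.25 ± 0.17 (adjusted p = 3.22e-19, edgeR) against rods. Among classes with 10 nuclei or more in most retinas, astrocytes came next at 53.1 ± 37.8 CPM (SD, n = 14). Müller glia exceeded astrocytes in 14 of 14 retinas by 4.29 ± 1.06 (SD) on the log2(CPM + 1) scale. The nuclei gated by pigment epithelium markers were left out of this order. Pooled over 91 nuclei they stood at 187 CPM, from 81 UMIs. In Infancy 3 and Senile 4 they stood at 716 and 926 CPM, within the Müller range, from 27 and 19 UMIs. In the other retinas with such nuclei they stood at 0 to 378 CPM. Below the Müller glia the order was not resolved, since the ranges of each pair of neighbours from astrocytes down to amacrine cells (ACs) overlapped. Rods and cones did not differ beyond their spread either, at 0.04 ± 0.24 (SE, adjusted p = 0.93, edgeR).

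A share of nuclei with at least 1 UMI depends on depth, so every nucleus was also thinned to 1000 UMIs, leaving out shallower ones. After thinning, 53.5% of 6818 Müller nuclei had an RLBP1 UMI, against 74.0% of 7286 before it. The thinned share was 2.54% in cones, 1.53% in rods and 1.57% in ACs, which are not known to hold the protein, and the Wilson 95% interval for rods (0.896% to 2.60%) included the AC share. The median depth was 2462 UMIs in the Müller nuclei kept for thinning, 3301 in cones, 2409 in rods and 4938 in ACs. In retinal ganglion cells the thinned share was 0.742% of 5122 nuclei (median depth 5604.5 UMIs), below the interval for rods. In bipolar cells it was 3.02% of 5898 nuclei (2.61% to 3.49%) and in horizontal cells 3.12% of 641 (2.03% to 4.77%). Both shares were higher than those of rods and cones. Whether RLBP1 in rods lay above background thus depended on the neurons it was set against. Intervals cover counting error only.

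RDH10 encodes a retinol dehydrogenase that oxidises all-trans-retinol. Its level in Müller glia ran from 71.7 to 187.7 CPM with a median of 140.3 CPM, and that in cones from 25.6 to 65.0 CPM with a median of 38.9 CPM. All Müller values exceeded all cone values, and the difference was 1.77 ± 0.11 (SE, adjusted p = 9.78e-13, edgeR). Of the 9 classes with 10 nuclei or more in most retinas, bipolar cells (BCs) were second at 49.1 ± 10.9 CPM (SD, n = 15). They overlapped the cones at 40.8 ± 11.1 CPM, which they exceeded in 11 of 15 retinas. The 91 nuclei gated by pigment epithelium markers were left out of this order. They held 71 RDH10 UMIs among 433286 UMIs, and 35 of the 71 were in Infancy 3. Rods held less, with a mean of 19.6 ± 12.4 CPM (SD, n = 14), and lay above the cones of the same retina in 2 of 14 retinas (-1.21 ± 0.21, SE, adjusted p = 2.38e-05, edgeR).

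RDH11, a dehydrogenase that acts on cis and trans retinoids in several tissues, showed the smallest of the 3 Müller differences. Müller glia held between 34.3 and 173.4 CPM with a median of 74.2 CPM, and cones between 29.3 and 43.0 CPM with a median of 34.5 CPM. The ranges overlapped, although Müller glia were higher in 14 of 15 retinas (1.12 ± 0.18, SE, adjusted p = 5.52e-06, edgeR). The size of this difference varied with the Cell Ranger version that the matrix headers name. It was 1.84 in the retinas of version 6.1.2 and 0.49 in those of version 7.0.1, and both passed (adjusted p = 2.02e-10 and 0.0023, edgeR). The samples of each version also form their own run of sample numbers, so version cannot be told apart from a batch of samples. The sex in the study's sample overview splits the retinas alike, except in Mature 3 and Senile 3. RDH11 and RDH12 lie next to each other in the RefSeq annotation of another TS assembly (TupChi_1.0), and whether the counting could have moved reads between them was not tested.

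**Figure D2:**
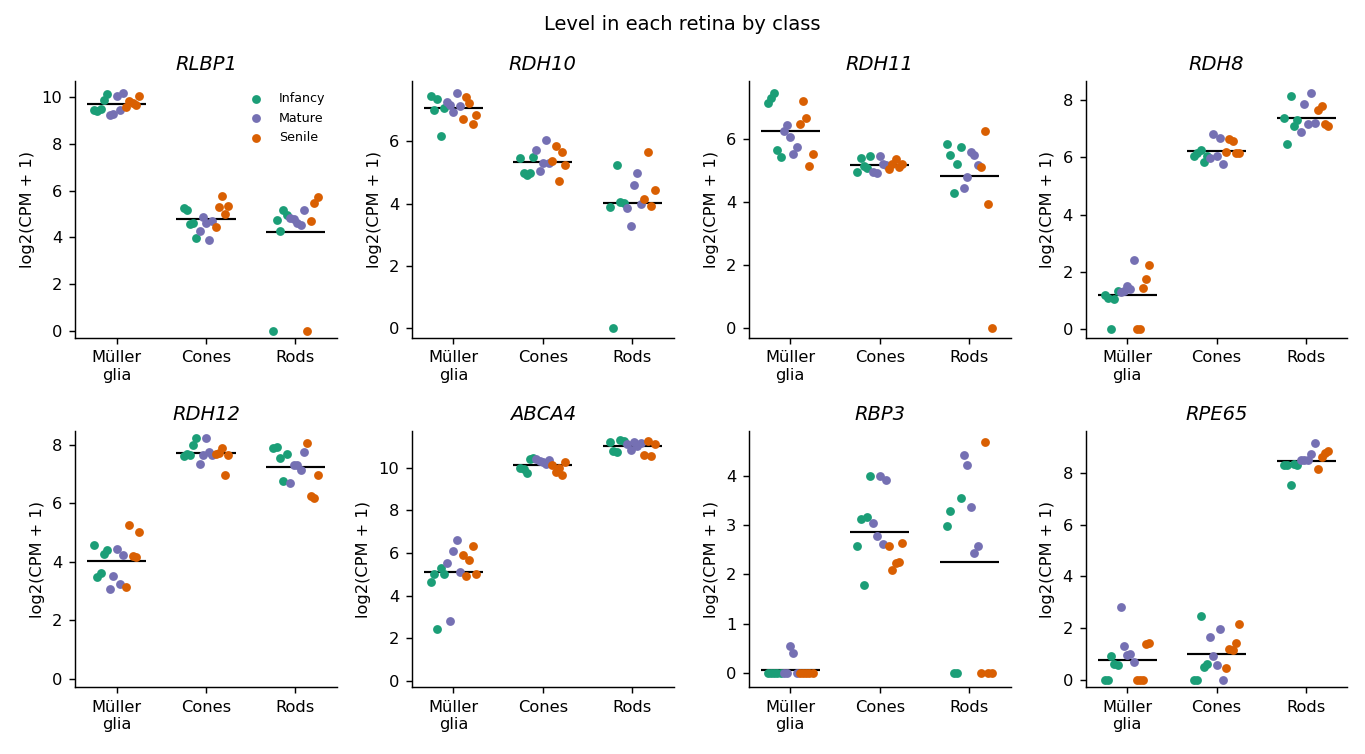
Level of 8 genes in each retina, as log2(CPM + 1), in Müller glia, cones and rods, with points coloured by stage and a black line at the mean of the plotted values. Müller values of RLBP1 and RDH10 lie above all cone values, RPE65 separates the rods from both other classes, and RBP3 in rods scatters down to 0.

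Among the photoreceptor genes, RDH8, RPE65 and ABCA4 were higher in rods than in cones, and RDH10 and RDH12 were lower. In rods against cones 7 genes of the set were tested and 5 passed, 3 higher and 2 lower, beside 41.7% of the 8035 features tested. RLBP1 and RDH11 did not pass. In Müller glia against rods all 7 tested genes passed, beside 66.8% of 6162 features, with RLBP1, RDH10 and RDH11 higher in Müller glia and the others higher in rods. RBP3 and LRAT did not enter either fit. The median log2 fold change of the tested genes was 0.04 in rods against cones (0.0014 over all features) and -3.06 in Müller glia against rods (0.04 over all features).

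RDH8 encodes the outer segment dehydrogenase that reduces all-trans-retinal. Rods held 87.4 to 303.8 CPM with a median of 149.7 CPM, and cones held 53.9 to 112.1 CPM with a median of 70.1 CPM. These ranges overlapped between retinas, yet the rods exceeded the cones of the same retina in 14 of 14 retinas (1.14 ± 0.11, SE, adjusted p = 4.28e-10, edgeR). BCs followed with 8.89 ± 5.08 CPM (SD, n = 15), below the cones of the same retina in every case. Müller glia held 1.57 ± 1.21 CPM (SD, n = 15) and had no RDH8 UMI in 3 retinas.

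RDH12 reduces retinal in the inner segment, and its order was the opposite. Cones ranged from 125.2 to 298.5 CPM with a median of 204.8 CPM, and rods from 71.8 to 266.9 CPM with a median of 159.1 CPM. Rods were above the cones of the same retina in 4 of 14 retinas, and the difference was -0.49 ± 0.12 (SE, adjusted p = 0.0018, edgeR). In the retinas of Cell Ranger 6.1.2 alone it was -0.21 and no longer passed (adjusted p = 0.34, edgeR). Müller glia held 17.2 ± 8.67 CPM (SD, n = 15), which overlapped the 15.7 ± 6.37 CPM of BCs.

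ABCA4, the retinal-carrying transporter of disc membranes, separated rods from cones without overlap. Rods held 1493 to 2507 CPM with a median of 2206 CPM, and cones held 804 to 1399.9 CPM with a median of 1149.9 CPM. The lowest rod value thus lay above the highest cone value, and the difference was 0.79 ± 0.06 (SE, adjusted p = 1.28e-11, edgeR), with rods higher in 14 of 14 retinas. After thinning to 1000 UMIs, 86.7% of 850 rods and 65.0% of 14989 cones had an ABCA4 UMI, against 3.58% of 6818 Müller nuclei. Müller glia held 41.8 ± 25.5 CPM (SD, n = 15) and did not differ in order from astrocytes at 41.3 ± 30.3 CPM (SD, n = 14). The files hold 5 antisense features that bear the gene's name, with 2 to 1110 UMIs in all libraries against 113651 for ABCA4 itself.

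The cone and rod markers were also summed in the other photoreceptor class. The summed CPM of the list of 10 cone markers was 213 to 976 in rods and 7756 to 11694 in cones, and OPN1SW was at 0 in rods. GNGT2, CNGB3 and CNGA3 were at 0 in cones as well and bear on nothing here. The rod list of 12 markers summed to 14374 to 29903 CPM in rods and to 205 to 564 CPM in cones. What these UMIs of the other class's markers come from, and their part in the levels of RDH12 and ABCA4, was not tested.

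RBP3 encodes the interphotoreceptor retinoid-binding protein, one of the most abundant proteins of the matrix around photoreceptors. It had 724 UMIs in all libraries, which limits every statement on it. Cones held 2.44 to 15.1 CPM with a median of 5.23 CPM, and rods held 0 to 24.8 CPM with a median of 5.95 CPM. The photoreceptor classes overlapped fully. The rod value rested on 19 UMIs and was 0 in 5 of 14 retinas. Of the UMIs in assigned nuclei 92.7% were in cones, 3.47% in rods and 2.38% in BCs, while Müller glia held 2 UMIs. RBP3 was higher in cones than in BCs in 15 of 15 retinas.

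The clearest rod signal was that of RPE65, the retinoid isomerase for which the pigment epithelium is known. Its level in rods was 318.7, 314.7, 185.6, 327.7 and 316.8 CPM in Infancy 1 to 5, and 362.9, 362.1, 363.0, 422.7 and 576.6 CPM in Mature 1 to 5. In Senile 2 to 5 it was 283.6, 396.1, 430.8 and 459.0 CPM. Every one of the 14 retinas was far above the highest value in cones (4.47 CPM) and in Müller glia (5.93 CPM). RPE65 in rods against cones gave 7.97 ± 0.26 (SE, adjusted p = 1.05e-20, edgeR), and in Müller glia against rods -8.15 ± 0.19 (SE, adjusted p = 6.47e-22, edgeR). Among the 9 classes with at least 10 nuclei in most retinas the next by mean was microglia at 2.98 CPM, from 2 UMIs, and the few nuclei gated by pigment epithelium markers, pooled over retinas, stood at 1426 CPM. They lay above the rods of the same retina in 4 of 11 retinas.

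Single nuclei showed the same separation. As counted, 488 of 932 rods (52.4%, Wilson 95% interval 49.2% to 55.6%) had an RPE65 UMI, against 0.442% of 15174 cones and 0.274% of 7286 Müller nuclei. After thinning to 1000 UMIs the shares were 29.8% of 850 rods, 0.100% of 14989 cones, 0.132% of 6818 Müller nuclei and 0.119% of 5898 BCs. The share was 0 of 5122 retinal ganglion cells (Wilson upper bound 0.0749%) and 0 of 867 astrocytes (0.441%). It was 0.126% of 1590 ACs, and the Wilson intervals of cones (0.0607% to 0.165%), Müller glia (0.0695% to 0.251%) and BCs (0.0575% to 0.245%) all reached below the upper bound for ganglion cells. All these intervals pool nuclei over retinas and cover counting error only, not the spread between animals. The median depths of the nuclei kept were 2409 UMIs in rods, 3301 in cones, 2462 in Müller glia, 2654 in BCs and 5604.5 in ganglion cells. Per retina the share in rods ran from 21.2% to 100% as counted. The thinned share in rods ran from 15.4% in Senile 2, from 13 nuclei, to 55.6% in Mature 5, from 36 nuclei. A rod carried 1 RPE65 UMI in 256 nuclei, 2 in 126 nuclei, and at most 9.

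Over all 119765 nuclei inside the filters, whatever their class, the share with an RPE65 UMI was 0.320% in nuclei with none of the rod markers, 1.28% in those with 3, 26.8% with 5, 52.2% with 8 and 80.4% of the 107 nuclei with 10. Depth was not matched between these nuclei, and its part in the rise was not tested. Rods with and without an RPE65 UMI had median depths of 3164.5 and 1604.5 UMIs. The rod markers summed to 18728 CPM in the former and 21170 CPM in the latter, and ABCA4 stood at 2246 and 2149 CPM, RDH8 at 164 and 177 CPM and RDH12 at 170 and 167 CPM. RDH11 stood at 35.7 and 45.9 CPM. These values are pooled over retinas, with no spread between retinas, and were not tested.

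**Figure D3:**
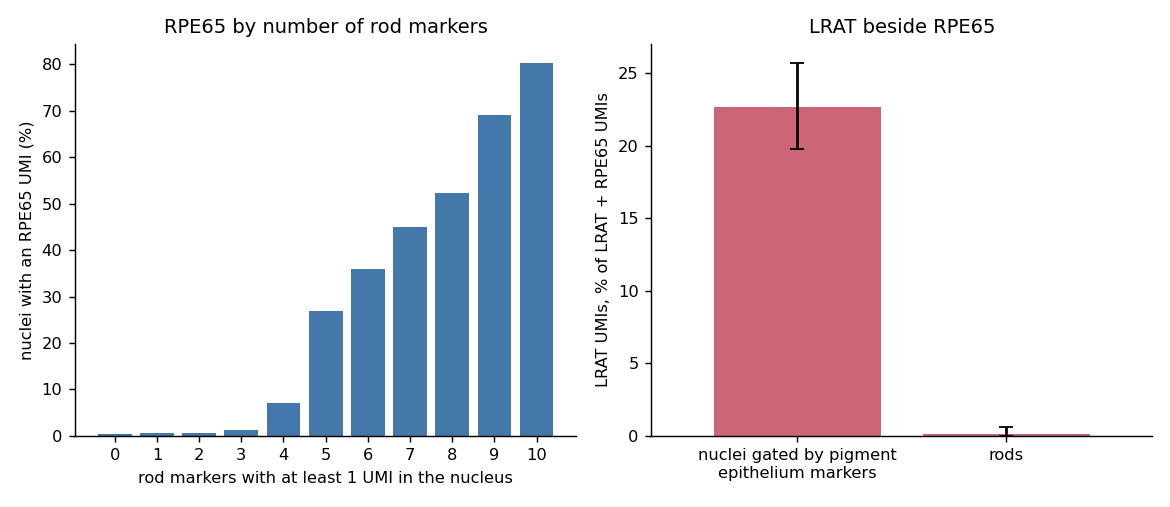
Left, percent of nuclei with at least 1 RPE65 UMI against the number of rod markers with a UMI in the nucleus, over all nuclei inside the filters, which rises from 0.320% at none to 80.4% at 10. Right, LRAT UMIs as a percent of the sum of LRAT and RPE65 UMIs, with exact 95% intervals, in 91 nuclei gated by pigment epithelium markers (22.7%) and in 932 rods (0.111%). The intervals pool UMIs over retinas and cover counting error only.

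RPE65 and LRAT work in sequence in the pigment epithelium, and the nuclei that the pigment markers gated gave a second place to look for both. There were 91 such nuclei in 12 retinas, 49 of them in Mature 4. In the other 42 nuclei RPE65 stood at 2549 CPM and LRAT at 764 CPM, with 604 and 181 UMIs. Nearly all of these UMIs came from 5 retinas. RPE65 and LRAT had 288 and 96 UMIs in 9 nuclei of Infancy 3, 123 and 39 in 6 nuclei of Mature 1, and 85 and 17 in 6 nuclei of Senile 4. In 2 nuclei of Senile 1 they had 73 and 26 UMIs. Senile 5 had 31 and 3 UMIs in 9 nuclei. The 49 nuclei of Mature 4 held 14 RPE65 UMIs and none of LRAT, with 5 UMIs of BEST1, a channel gene of the RPE, and 37 of PMEL, a melanosome gene. In Infancy 4, Infancy 5, Mature 2, Mature 3, Mature 5 and Senile 3 the gated nuclei had 0 to 2 RPE65 UMIs and none of LRAT or BEST1. A single nucleus held 103 of the 123 RPE65 UMIs in Mature 1 and 30 of the 31 in Senile 5. The name of the class was therefore not borne out for many of these nuclei, and they are called only by the markers that gated them.

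LRAT, the acyltransferase that supplies the substrate of RPE65, was nearly missing from rods, and from cones and Müller glia as well. Its mean was 1.03 CPM in rods, 0.315 CPM in cones and 0.699 CPM in Müller glia. Rods held 1 LRAT UMI beside 900 of RPE65, so that LRAT made up 0.111% of the 901 UMIs of the pair (exact 95% interval 0.00281% to 0.617%). In the nuclei gated by pigment markers LRAT made up 22.7% of 799 UMIs (19.8% to 25.7%). The intervals did not overlap, but they pool UMIs over nuclei and retinas and cover counting error only, not the spread between animals. Infancy 3 alone gave 96 of the 181 LRAT UMIs of the gated nuclei. In cones LRAT made up 21.1% of 109 UMIs of the pair, and in Müller glia 44.4% of 36. Both classes held little RPE65, and the share depends on RPE65 as well as on LRAT. The copy RPE65li1 made up 10.1% of the UMIs of both RPE65 features in rods, 5.21% in the pigment-gated nuclei and 24.6% in cones. Its 28 UMIs in cones lay in only 6 nuclei, and its 101 UMIs in rods lay in 93 nuclei. In all, LRAT had 410 UMIs, of which 253 lay in assigned nuclei, and 71.5% of these were in the pigment-gated nuclei.

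Values that bear on pigment epithelium RNA in the rods were as follows. BEST1 and PMEL, with 115 and 51 UMIs in the 91 pigment-gated nuclei, were at 0 in rods. TYR and SLC45A2 were at 0 in rods too, but had only 0 and 4 UMIs in the pigment-gated nuclei, too few to be read. The other 6 of the 10 pigment markers had a UMI in rods. In the pigment-gated nuclei these had 248 (TYRP1), 309 (MITF), 51 (MLANA), 37 (DCT), 6 (OCA2) and 8642 (TRPM3) UMIs. Their levels in rods are given only as the sum of the list. The list summed to 55.7 to 322 CPM in rods, 76.8 to 205 CPM in cones and 2998 to 5339 CPM in Müller glia. TRPM3, which other retinal cells also express, supplied most of the list's UMIs in the gated nuclei, at 8642. RPE65 in rods stood at 318.7 CPM in Infancy 1, 314.7 CPM in Infancy 2 and 283.6 CPM in Senile 2, the retinas without any pigment-gated nucleus. It stood at 185.6 CPM in Infancy 3 and 459.0 CPM in Senile 5, with 9 such nuclei each, at 362.9 CPM in Mature 1 and 430.8 CPM in Senile 4, with 6 each, and at 422.7 CPM in Mature 4, with 49. In the retinas with 1 to 3 such nuclei it was 327.7 CPM in Infancy 4, 316.8 CPM in Infancy 5, 362.1 CPM in Mature 2, 363.0 CPM in Mature 3, 576.6 CPM in Mature 5 and 396.1 CPM in Senile 3. Of the 11 retinas with rods and such nuclei, 9 lay above all 3 retinas without them. Those 3 were all of Cell Ranger 6.1.2 and none was Mature. RPE65 in rods averaged 305 ± 65.7 CPM in version 6.1.2 and 412 ± 83.3 CPM in version 7.0.1 (SD, n = 6 and 8). The presence of such nuclei thus cannot be told apart from stage and version here. RPE65 in cones and Müller glia of the same libraries was at most 4.47 and 5.93 CPM. The part of pigment epithelium RNA or free RNA in the rods' RPE65 was not tested.

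S-cones and L-cones, told apart by the short-wave opsin OPN1SW and the long-wave opsin OPN1LW, differed in RDH10. This was the 1 gene of 6 tested that passed in 12 retinas with at least 10 S-cones, beside 11.0% of 8877 features. RDH10 in S-cones stood at 100.2, 15.4, 0 and 63.5 CPM in Infancy 1 to 4, at 106.8, 102.3, 30.1 and 126.4 CPM in Mature 1 to 4, and at 57.2, 48.3, 47.9 and 77.0 CPM in Senile 1, 2, 3 and 5. The S-cone sums ran from 28027 UMIs in Infancy 3 (10 nuclei) to 330637 UMIs in Infancy 4 (40 nuclei). These values thus rest on few RDH10 UMIs. The L-cones of the same retinas averaged 39.0 ± 12.4 CPM (SD, n = 12), and the S-cones 64.6 ± 39.1 CPM. The ranges overlapped and the S-cones were higher in 8 of 12 retinas, with a difference of 0.74 ± 0.19 (SE, adjusted p = 0.0036, edgeR). It lost the call without the filter on low counts (0.54, adjusted p = 0.12) and in the retinas of Cell Ranger 6.1.2 alone (0.64, adjusted p = 0.21). The rod marker list summed to 1777 to 3121 CPM in S-cones and 176 to 515 CPM in L-cones, and its part in the result was not tested. RLBP1, RDH8, RDH11, RDH12 and ABCA4 did not pass, with log2 differences between -0.16 and 0.36. For ABCA4 the difference was -0.08 ± 0.07 (SE, adjusted p = 0.62, edgeR), and it passed without the filter, a fit in which the median log2 difference of all features was -0.54 in place of -0.07.

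Of 45 further genes of retinoid binding, uptake, oxidation and signalling, 42 are in the feature list. In Müller glia against cones 23 of them had enough UMIs to be tested, and 13 were higher and 5 lower in Müller glia, with a median log2 fold change of 0.56. These 18 calls were 78.3% of the genes tested, close to the 77.2% over all features. TTPA, a tocopherol transfer protein of the RLBP1 family, stood at 52.5 ± 17.4 CPM in Müller glia and 0.753 ± 0.494 CPM in cones (6.08 ± 0.19, SE, adjusted p = 1.21e-17, edgeR). ALDH1A3 (53.2 ± 32.8 against 1.73 ± 1.30 CPM) and ALDH1A2 (22.3 ± 16.6 against 0.570 ± 0.462 CPM), which make retinoic acid, were higher in Müller glia in 15 of 15 retinas. In cones, the retinoid receptor RXRG reached 129 ± 27.3 CPM against 3.13 ± 2.22 CPM in Müller glia (SD, n = 15), and the dehydrogenases DHRS9 (20.6 ± 9.62 against 1.10 ± 2.34 CPM) and DHRS4 (60.6 ± 25.5 against 17.4 ± 4.45 CPM) were higher as well. Some of these levels differed between Cell Ranger versions, which were compared after seeing the data. ALDH1A3 in Müller glia was 72.1 ± 30.6 CPM in version 7.0.1 and 31.6 ± 19.8 CPM in version 6.1.2 (SD, n = 8 and 7; adjusted p = 0.0023, edgeR), and DHRS9 in cones was 12.9 ± 4.31 and 29.4 ± 4.99 CPM (adjusted p = 0.00078, edgeR). By version 6 of 21 retinoid genes passed in Müller glia and 9 of 23 in cones, beside 20.5% and 25.3% of all features.

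In rods against cones 11 of these genes were tested, and 5 were higher and 2 lower in rods (63.6%, beside 41.7% of all features). RETSAT, a retinol saturase, was higher in rods (29.2 ± 17.3 against 13.6 ± 3.05 CPM, SD, n = 14), as were the receptor RXRB (70.7 ± 31.3 against 36.8 ± 12.7 CPM) and the reductase AKR1B10 (26.0 ± 17.9 against 12.2 ± 6.48 CPM). RXRG (51.0 ± 29.2 against 129 ± 28.4 CPM) and DHRS9 (10.3 ± 7.64 against 20.3 ± 9.87 CPM) were lower. In Müller glia against rods 9 of 11 passed, 7 higher and 2 lower in Müller glia (81.8%, beside 66.8% of all features). TTPA had no UMI in any rod sum and 49.6 ± 13.6 CPM in the Müller glia of the same 14 retinas. ALDH1A3 (56.3 ± 31.6 against 1.15 ± 2.62 CPM) was higher in Müller glia, and RXRB and DHRS4 (81.4 ± 36.8 CPM in rods, 17.1 ± 4.47 CPM in Müller glia) were higher in rods. Between S-cones and L-cones 2 of 14 passed (14.3%, beside 11.0% of all features, of which 368 were higher and 609 lower in S-cones), both lower in S-cones. These were the receptor RARB (19.6 ± 16.5 against 33.2 ± 7.68 CPM, SD, n = 12) and DHRS4 (38.7 ± 23.6 against 56.9 ± 25.2 CPM).

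None of the tested genes of the set changed with age past the threshold. Müller glia, cones and rods were each compared among the 3 stages with sex as a covariate, which made 9 contrasts and 48 tests of the set, and 0 passed an adjusted p of 0.05 in edgeR. DESeq2 also called 0. At an unadjusted p under 0.05 in edgeR there were 7, of which 3 were in cones in Senile against Mature (1187 of 14925 features). In Mature against Infancy there was 1 in Müller glia (1195 of 10809 features) and 1 in rods (290 of 2812). In Senile against Infancy there was 1 in Müller glia (941 of 10809) and 1 in cones (1388 of 14925). The Y-linked RNA of 9 of the 15 retinas went against the sex that the study's sample overview gives, and without the covariate 0 of the 48 tests passed as well. In Müller glia 5 genes of the set were tested, and of all features 0.971% passed in Mature against Infancy, 1.11% in Senile against Infancy and 0.0370% in Senile against Mature. In cones 7 were tested, beside 1.31%, 1.65% and 0.00670% of all features, and in rods 4, beside 0.889%, 0.996% and 0%. In that last contrast, Senile against Mature in rods, 194 of 2812 features had an unadjusted p under 0.05 in edgeR, and DESeq2 called 1 feature. None of the 21 further retinoid genes tested in Müller glia, the 23 in cones and the 2 in rods passed in any contrast.

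**Figure D4:**
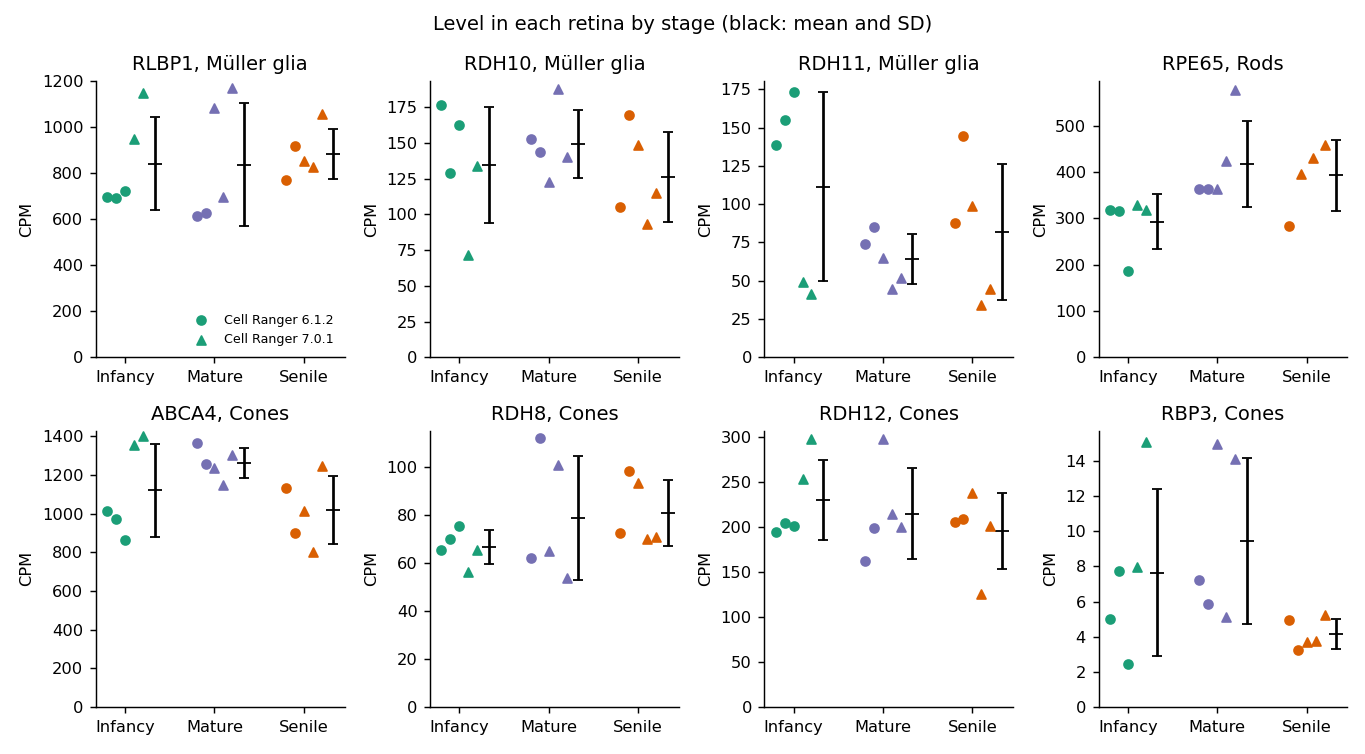
CPM in each retina by stage for 8 pairs of gene and class, with circles for retinas whose matrix names Cell Ranger 6.1.2 and triangles for 7.0.1, and black bars for the mean and SD of a stage. RDH11 in Müller glia splits by symbol within Infancy (138.8 CPM and above against 48.9 CPM and below), RPE65 in rods of Mature retinas lies above that of Infancy retinas, and RBP3 in cones is lowest on average in Senile retinas at 4.17 CPM.

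RLBP1 in Müller glia gave 695.0, 691.6, 723.3, 950.4 and 1151 CPM in Infancy 1 to 5, 612.7, 626.2, 1082, 697.8 and 1171 CPM in Mature 1 to 5, and 770.4, 916.8, 855.4, 829.5 and 1057 CPM in Senile 1 to 5. The stage means of 842 ± 203, 838 ± 267 and 886 ± 109 CPM (SD, n = 5 each) lay within each other's spread. RDH10 in Müller glia likewise averaged 135 ± 40.5, 149 ± 23.96 and 126 ± 31.6 CPM, in the same order of stages.

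RPE65 in rods was higher in each Mature retina (362.1 CPM or more) than in each Infancy retina (327.7 CPM or less). The difference was 0.45 ± 0.16 (SE, unadjusted p = 0.012), and the adjusted p of 0.31 in edgeR did not pass. With RPE65li1 added it was 0.34 (adjusted p = 0.50, edgeR), and within the versions 6.1.2 and 7.0.1 it was 0.36 and 0.44. Infancy 3 (185.6 CPM) and Mature 5 (576.6 CPM) stood apart within their stages by Dixon's criterion, both on the side that widens the difference. The Senile rods, with a mean of 392 ± 76.9 CPM (SD, n = 4), overlapped both other stages. The rod marker list was on average lower in Mature rods (19812 CPM) than in Infancy rods (23614 CPM), and the pigment list higher (212 against 126 CPM). Their part in the difference was not tested.

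RBP3 in cones stood at 4.98, 7.76, 2.44, 7.94 and 15.1 CPM in Infancy 1 to 5, at 7.21, 5.85, 15.0, 5.10 and 14.1 CPM in Mature 1 to 5, and at 4.93, 3.26, 3.72, 3.73 and 5.23 CPM in Senile 1 to 5. The Senile retinas were the tightest group and overlapped the lower values of both other stages. Senile against Mature was -1.23 ± 0.39 (SE, unadjusted p = 0.0063, adjusted p = 0.50, edgeR), at -0.77 within version 6.1.2 and -1.44 within version 7.0.1.

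ABCA4 in cones averaged 1121 ± 242, 1262 ± 79.8 and 1020.5 ± 177 CPM (SD, n = 5 each) in Infancy, Mature and Senile retinas. Senile against Mature gave -0.39 ± 0.13 (SE, unadjusted p = 0.011, adjusted p = 0.50, edgeR). RLBP1 in cones moved the other way in this contrast (0.71 ± 0.27, SE, unadjusted p = 0.018, adjusted p = 0.54, edgeR), from 21.7 ± 5.71 to 36.8 ± 12.1 CPM. RDH8 and RDH12 in cones had no unadjusted p under 0.05 in any contrast. ABCA4 in Müller glia averaged 25.9 ± 13.1, 50.2 ± 34.8 and 49.4 ± 20.4 CPM (SD, n = 5 each). It passed in Mature against Infancy without the filter on low counts (0.99, adjusted p = 0.022, edgeR) and in no other setting. The summed cone markers in these Müller sums averaged 142, 178 and 295 CPM in the 3 stages, and their part in the level of ABCA4 was not tested.

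RDH11 in Müller glia stood at 138.8, 154.7, 173.4, 48.9 and 41.5 CPM in Infancy 1 to 5, at 74.2, 85.2, 64.7, 44.3 and 51.8 CPM in Mature 1 to 5, and at 87.8, 144.5, 98.5, 34.3 and 44.6 CPM in Senile 1 to 5. In Infancy and Mature retinas every value of Cell Ranger 6.1.2 lay above every value of 7.0.1, and in Senile retinas the groups overlapped at Senile 3. The version was 6.1.2 in Infancy 1 to 3, Mature 1 and 2 and Senile 1 and 2. Mature against Infancy gave -0.65 ± 0.22 (SE, unadjusted p = 0.0092, adjusted p = 0.24, edgeR), and it was -0.997 within version 6.1.2 and 0.22 within version 7.0.1.

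The version itself was therefore fitted beside stage and in place of sex, a comparison chosen after seeing the data. Version and sex were not fitted together, so their parts cannot be told apart here. In Müller glia 2 of the 5 tested genes differed between versions, beside 20.5% of all features. RDH11 was lower in the libraries of version 7.0.1, at 53.6 ± 20.2 CPM (SD, n = 8) against 123 ± 39.4 CPM (n = 7), a difference of -1.15 ± 0.24 (SE, adjusted p = 0.0034, edgeR). RLBP1 was higher in them, at 974 ± 169 against 719 ± 102 CPM (0.45 ± 0.13, SE, adjusted p = 0.023, edgeR). In cones 0 of 7 genes passed, beside 25.3% of features, with 1 at an unadjusted p under 0.05 (RBP3), and in rods 0 of 4, beside 6.79%, with none. Libraries of version 7.0.1 held 18440752 to 58734300 UMIs and those of version 6.1.2 held 13429873 to 30034007, so that library totals overlapped. Depth per nucleus was nearly separate. The median UMIs per Müller nucleus ran from 793 to 1563 in the retinas of 6.1.2 and from 1525 to 5404 in those of 7.0.1. In cones they ran from 1588 to 3514 and from 3003 to 11316, and in both classes only Senile 4 overlapped. The part of depth in these differences was not tested.

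By the correlation of log2(CPM + 1) over 134 sums of a class in a retina, the features most like ABCA4 were the antisense feature FAM107A-AS-1 (Pearson r = 0.87) and the genes FRMPD2 (0.87) and MAK (0.86), a kinase of photoreceptor cilia. The features most like RPE65 were LINC-CADM1-9 (0.93), LINC-RPL7-122 (0.92) and LINC-WNT4-2 (0.92), and those most like RLBP1 were LINC-ADAMTS12-1 (0.76), LINC-ADAMTS12-2 (0.76) and LINC-SPTLC3-3 (0.75). The sums share libraries and differ in depth, and the values describe likeness of pattern only.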

How the data were processed

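Retinas had been dissected and frozen, and nuclei were isolated and sequenced as 10x libraries. The authors deposited 1 matrix of raw UMI counts per retina, made with Cell Ranger against the TS 3.0 genome. The matrix headers name version 6.1.2 for 7 libraries and 7.0.1 for 8, while the submitters' processing notes name 5.0.1 and 7.0.1. Whether reads in introns were counted is not given in the sources used here. Library totals were 13429873 to 58734300 UMIs.

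Barcodes were kept where the number of genes lay between 200 and 6000 and mitochondrial RNA made up less than 5%, and were assigned to 11 classes by a likelihood over 86 marker genes (posterior above 0.99, at least 3 own markers). No gene of the set is a marker. No doublet caller was run, and 4135 nuclei with markers of several classes were set aside, 77029 had no class. UMIs were summed per retina and class (at least 10 nuclei) and tested with edgeR 4.0.16 (glmQLFit, glmQLFTest, filterByExpr, TMM, Benjamini-Hochberg over all features) in R 4.3.3, with retina as a block between classes and sex as covariate between stages. The SE of a log2 fold change was derived from its F statistic. DESeq2 1.42.0, no filter, other gates, a minimum of 20 nuclei, summed gene copies, each Cell Ranger version alone, other covariates and each retina left out were alternatives. The scripts were tested on simulated data. Tables and plots used Python 3.11.15, numpy 2.4.6, pandas 2.3.3, scipy 1.17.1 and matplotlib 3.10.9.

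The genes and lists were chosen with earlier results of these data known. All 10 genes are named. From the retinoid list at most 3 genes per direction and class comparison were named, those with the largest log2 fold change past an adjusted p of 0.05 and at least 10 CPM in the higher class. One gene that this rule names is not reported here. The 3 most similar features were given for RLBP1, RPE65 and ABCA4, and RBP3 was too low for it. Per the study's methods each retina came from a different animal, so p-values between stages or versions measure the spread between animals. Between classes, with retina as a block, they measure how the difference within a retina varies from retina to retina. No sequence is shown, since no genome of the files' build was used here.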

Additional observations from a re-analysis of the deposited data

Results flagged for a closer look

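Among 60 groups of 4 or 5 retinas examined for a retina that stands apart by Dixon's criterion, 3 held one, and chance alone flags about 1 group in 20. RPE65 in Infancy rods was lowest in Infancy 3, at 185.6 CPM beside 314.7 CPM or more in the other Infancy retinas. RPE65 in Mature rods was highest in Mature 5, at 576.6 CPM beside 422.7 CPM or less. RBP3 in Senile rods was 24.8 CPM in Senile 3, from 1 UMI, and 0 in the other 3 retinas. The copy RPE65li1, which the comparisons above did not use as a gene of the set, had a mean of 44.2 ± 26.1 CPM (SD, n = 14) in rods and 0.352 CPM in cones (6.94 ± 0.51, SE, adjusted p = 3.85e-12, edgeR), and no UMI in Müller glia. Whether reads were shared between RPE65 and RPE65li1 was not tested.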

How the results depend on the processing

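In Müller glia against cones and against rods the calls of the set kept their number under every alternative run, and leaving out 1 retina at a time gave 6 to 6 and 7 to 7 calls. In rods against cones it gave 5 to 5, and Cell Ranger 6.1.2 alone gave 4, without RDH12. In S-cones against L-cones it gave 1 to 1, and the retinas of Cell Ranger 6.1.2 alone gave 0. Without the filter on low counts 1 gene passed in Mature against Infancy in Müller glia, in place of 0. RDH11 turned to 0.22 there with Cell Ranger 7.0.1 alone, and the cause was not tested. RDH12 in rods against cones was -0.21 with Cell Ranger 6.1.2 alone, and RDH10 in S-cones against L-cones was 0.64 with Cell Ranger 6.1.2 alone and 0.54 without the filter. Thinning to 1000 UMIs moved the share of nuclei with an RPE65 UMI to 29.8% in rods, 0.100% in cones and 0.132% in Müller glia. ABCA4 in S-cones against L-cones passed without the filter, where RDH10 did not. The other alternatives kept the direction and the side of the threshold of each gene of the set that passed in the main fits. The same held by stage for RDH11 in Müller glia, RPE65 in rods, and RBP3, ABCA4 and RLBP1 in cones, in the contrasts given above. Counts over all features moved more. Without the filter 18288 features passed in Müller glia against cones (9811 with it), 6342 in rods against cones (3348), 10584 in Müller glia against rods (4115) and 1788 in S-cones against L-cones (977), and Cell Ranger 6.1.2 alone gave 2193 and 641 in the last pair of comparisons. For Mature against Infancy, Senile against Infancy and Senile against Mature, 105, 120 and 4 features passed in Müller glia, 196, 247 and 1 in cones and 25, 28 and 0 in rods. DESeq2 gave 208, 191 and 37, then 405, 414 and 33, then 41, 46 and 1, and Cell Ranger 7.0.1 alone gave 10, 32 and 0, then 55, 95 and 0, then 3, 9 and 0. Without the filter these were 519, 481 and 189, then 712, 833 and 260, then 112, 127 and 53. Low counts limit RBP3 and LRAT, and no rods were had from Senile 1.

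The replicate numbers are shared between stages only as numbers. Pairs with the same number had correlations from -0.29 to 0.52 in Müller glia and -0.27 to 0.49 in cones, 12 of 15 over 0.1 in each, and 5 of 13 in rods. The best match carried its own number in 3 of 15, 2 of 15 and 5 of 14 retinas. With the replicate block in place of sex, 0 of 48 tests of the set passed, as without it.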
